A study of Sus scrofa with 21 samples.

Results

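The genes described here encode the proteins of the cytosolic ribosome, the particle that translates messenger RNA outside the mitochondria. They were taken by name from the deposited count table: rows whose gene name begins with RPL, or with RPS and a digit, together with RPSA and the stalk proteins RPLP0, RPLP1 and RPLP2, leaving out the S6 kinases, RPS19BP1 and hyphenated read-through names. By name, 55 of the 25880 rows qualified, and 51 reached the minimum of 1 CPM, a read count scaled to the size of its library, in at least 2 libraries. All 51 passed the filter on low counts and were among the 15359 genes tested, 22 for the small subunit (RPS names) and 29 for the large subunit (RPL names). The 4 rows below the minimum were RPL10A, RPS21, RPL10L and RPS27A, with 484, 171, 2 and 0 counts summed over all libraries.

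The study sequenced heart RNA from 21 pigs, 1 library per pig, to follow newborn hearts after a myocardial infarction (MI). Injured pigs had the left descending coronary artery tied permanently, with the injury labelled as made on postnatal day 1, and RNA was taken from the border zone of the ischaemic area on day 7 (n = 3), day 14 (n = 3) or day 28 (n = 2). Naive pigs gave the matching region on day 1 (n = 2), day 3 (n = 2), day 7 (n = 3), day 14 (n = 3) and day 28 (n = 3). The sample titles call these controls naive, whereas the protocol describes age-matched animals that were operated on without the ligation, and which of the descriptions applies is not given in the sources used here. No allele or drug is labelled for any group, all pigs were hand-fed and housed in an incubator, and neither litter nor sex is given in the sources used here. Each tissue piece was a mixture of cells, so that more cells of a type and more RNA per cell cannot be told apart.

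A ribosome has a small subunit, which decodes the message, and a large subunit, which joins the amino acids. Its proteins are needed in matched amounts, so their genes are usually expressed together, and their messages carry a terminal oligopyrimidine (TOP) tract, a run of C and T bases that begins with a C at the cap and through which mTORC1 signalling controls their translation. In striated muscle the large-subunit protein RPL3 has a paralogue, RPL3L, that can take its place, and the heart is one of the few tissues that express it.

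For 4 of the 5 rows that passed the test on day 28 after infarction, the 30 bases around their annotated start are shown first, to place them on the genome and to show which of them had a pyrimidine tract there. Sequences and positions come from the RefSeq annotation of Sscrofa11.1, from 10 bases before the annotated start to base 20 of the transcript, on the strand of the gene. Capitals mark a tract, defined as a C followed by at least 5 bases that are each C or T, read on the strand of the gene alone, with its first C within 10 bases of the annotated start.
RPS14, chr2:151433932-151433961, minus strand: tcggaaacgctaaagtcggcgtcttccgga
RPS20, chr4:75762199-75762228, plus strand: tcacgCCTTCCTCTTTgaagaagacgcagc
RPS2, chr3:39996169-39996198, plus strand: gggaagcggaaggagccagaggcgtttccg
RPL10, chrX:124927239-124927268, plus strand: gtgggagcgCCTCTTTTCCTTCggcgcggt
For comparison, the row with the longest tract had this window.
RPL32, chr13:68793246-68793275, minus strand: ggaagtgCTCCTCTTTTCCCTgccgggacc
Of the 50 rows with a single RefSeq start, 23 (46%) had such a tract, against 3710 of 19559 protein-coding genes (18.97%) on the chromosomes. Of the called rows shown, RPS20 and RPL10 had one, and RPS14 and RPS2 had none in this window. Annotated starts are not mapped cap sites, so the absence of these letters from a window says nothing about the message itself. RPL18, named at more than one locus, was left out of the search.

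Levels ranged widely between rows. The highest mean levels over the 21 libraries belonged to RPLP0, the base of the ribosomal stalk (1092 CPM), RPL6 (922 CPM) and RPL4 (870.0 CPM), both structural proteins of the large subunit. The lowest were RPL26L1, a paralogue of RPL26 (15.9 CPM), and the small-subunit proteins RPS14 (6.05 CPM) and RPS2 (1.77 CPM). RPS14 and RPS2 are core proteins of every ribosome, yet these rows held 8151 and 2426 counts in all 21 libraries together. Ribosomal protein genes have many near-identical processed copies, and how reads that match several places were treated is not given in the sources used here, so the levels of single rows are uncertain. Per kilobase of the longest RefSeq transcript, the scale on which genes can be compared, RPL23 (1016 CPM per kb), RPL6 (1011) and RPS20 (994) had the highest means, while RPS2 (0.299) and RPS14 (9.33) remained at the bottom.

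Together the 51 rows took 1.17% to 2.99% of a library's counts. On day 1 the naive libraries had 2.21% and 1.45%, and on day 3 they had 2.01% and 1.68%. Naive hearts had 1.54%, 1.86% and 1.74% on day 7, then 1.94%, 1.58% and 1.17% on day 14, and 1.70%, 1.34% and 2.25% on day 28. The naive ages overlapped throughout. Infarcted hearts had 1.71%, 1.75% and 1.97% on day 7, and 1.71%, 2.13% and 2.07% on day 14. On day 28 they had 2.99% and 2.39%, the 2 highest shares of all 21 libraries. As group means this was 2.69% ± 0.426 (SD, n = 2) against 1.76% ± 0.458 (SD, n = 3) in naive hearts of the same age. Transcripts of the 13 mitochondrially encoded genes made up 15.8% to 34.6% of each library and could move this share. Of the remaining counts, the ribosomal proteins took 4.57% and 2.96% in the day 28 infarcted libraries and 2.03%, 1.93% and 2.67% in the naive ones.

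**Figure D1:**
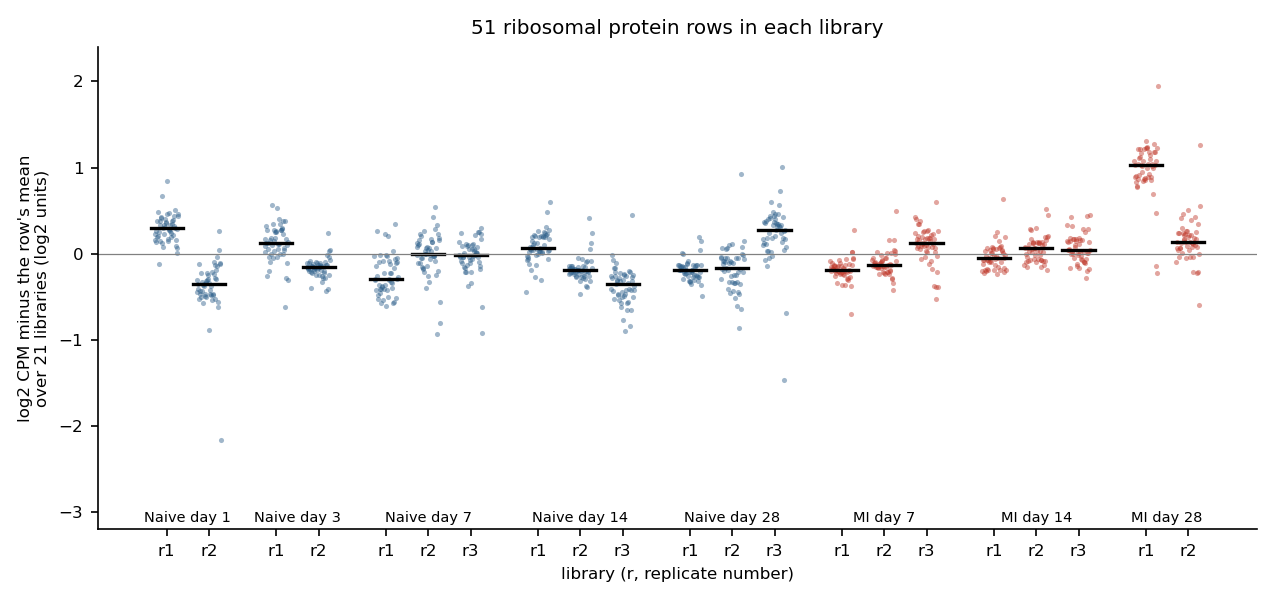
Each point is 1 of the 51 ribosomal protein rows in 1 library, as log2 CPM minus the row's mean over 21 libraries, and the bar is the median of the rows (blue, naive; red, MI; r, replicate). Rows moved together within a library: in MI day 28 replicate 1 the median stood about 1 log2 unit above the rows' means, and 49 rows were above them, whereas naive day 1 replicates 1 and 2 had 50 and 2 rows above.

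The plot of all rows by library shows that most of the variation was shared by the rows and differed between animals of 1 group. The median log2 CPM of the rows was 8.69 and 7.78 in the naive day 1 libraries, and 50 of 51 rows were higher in the first, by a median ratio of 1.57. On day 28 it was 7.91, 8.002 and 8.58 in naive hearts, and 9.30 and 8.43 in infarcted hearts. The spread between animals of a group, pooled over the 8 groups, was 0.335 log2 units (SD). MI day 28 replicate 1 was the highest of the 21 libraries in 48 of 51 rows, the exceptions being RPL26L1, RPL7L1 and RPL3. The lowest library was replicate 2 of the naive day 1 group in 16 rows, replicate 3 of naive day 14 in 16 and replicate 1 of naive day 7 in 10.

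Over the 21 libraries, the 1275 pairs of rows had a median Pearson correlation of log2 CPM of 0.80 (lowest -0.44, highest 0.97), and 96.5% of pairs were above 0. These correlations describe libraries that share depth and scaling and carry no test. RPS26, a small-subunit protein at the exit of the messenger RNA channel, was the row most like the others, with a median correlation of 0.89 with the remaining rows. For 47 rows this median was at least 0.5. The 4 others were all paralogues of a core protein: RPS27L (0.34), RPL26L1 (0.13), RPL3L (0.06) and RPL7L1 (0.02). Not every paralogue stood apart, since RPL36AL, a paralogue of RPL36A, was at 0.70. RPS27L, RPL26L1 and RPL7L1 also had the steadiest group means, with SDs over the 8 groups of 0.106, 0.112 and 0.113 log2 units, against 0.724 for RPS2, 0.410 for RPS14 and 0.396 for RPL37, a small protein of the large subunit. A steady group mean can hide spread within a group. RPS27L was highest of all libraries in infarcted day 28 replicate 1 and lowest in replicate 2. With libraries taken as deviations from their group means, the median correlations were 0.59 for RPS27L, 0.37 for RPL26L1, -0.04 for RPL3L and 0.28 for RPL7L1.

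The naive series asked how the young heart changes with age after birth. No ribosomal protein row was called between any of the naive ages compared (edgeR quasi-likelihood test, adjusted p under 0.05), and no gene of the 15359 was either (0%). Relative to day 1, the median log2 fold change of the 51 rows was 0.00 on day 3, -0.08 on day 7 and 0.00 on day 28, beside 0.03, -0.01 and 0.04 for all genes. It was -0.10 on day 14 relative to day 7 and 0.16 on day 28 relative to day 14, beside 0.04 and -0.02. Each of these medians was smaller than the SD of 0.335 between animals. The SD is the spread of single libraries and not the error of a difference between group means. At an unadjusted p under 0.05, 1 row passed in the 5 comparisons together: RPS14, lower on day 7 than on day 1. The shares of all genes that passed at this level, higher and lower, were 1.43% and 2.10% on day 3 and 1.86% and 3.58% on day 7, both relative to day 1. Day 14 relative to day 7 gave 6.10% and 2.73%, day 28 relative to day 14 gave 0.508% and 0.645%, and day 28 relative to day 1 gave 1.85% and 3.42%. DESeq2 called 0 rows in each of the 5, and limma voom called 0 in 4 of them and 2 (1 higher, 1 lower) on day 14 against day 7, beside 6.04% of all genes. The 2 naive day 1 libraries stood so far apart that leaving out replicate 1 or replicate 2 turned the median of day 3 against day 1 to 0.35 or -0.35, that of day 7 to 0.30 or -0.38, and that of day 28 to 0.38 or -0.34. The median of day 14 against day 7 was -0.25 without naive day 14 replicate 1 and -0.03 without day 7 replicate 2, and that of day 28 against day 14 was 0.29 without day 14 replicate 1, 0.06 without day 14 replicate 3 and -0.04 without day 28 replicate 3.

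Between day 7 and day 14, RPS2 had the largest difference, 0.75 on the log2 scale, from 1.24, 0.866 and 0.984 CPM to 2.28, 1.78 and 1.12 CPM with overlap, and RPL3L the next. RPL3L was at 116, 47.9 and 80.8 CPM in naive hearts on day 7 and at 128, 122 and 125 CPM on day 14, so the day 14 libraries were all above those of day 7. Its log2 fold change was 0.62 (SE 0.46, adjusted p = 0.731 by edgeR). Across this step 2 rows were higher without overlap, RPL3L among them, and 3 were lower without overlap, RPL10, RPLP0 and RPSA, a small-subunit protein also known as a laminin receptor. Of all genes, 10.1% were higher and 6.80% lower without overlap. RPL10, which joins the large subunit late in its assembly, was at 858, 774 and 848 CPM on day 7 and at 660, 619 and 682 CPM on day 14, a log2 difference of -0.34 (SE 0.17, adjusted p = 0.580 by edgeR). From day 1 to day 7, RPS14 had the largest difference, -0.76 (SE 0.27, adjusted p = 0.869 by edgeR), from 7.81 and 5.37 CPM to 4.71, 3.91 and 3.04 CPM, without overlap; 12.9% of all genes were lower without overlap there. RPLP2, a protein of the stalk that recruits translation factors, differed by -0.69 in that comparison, with 497 and 220 CPM on day 1 and 207, 220 and 238 CPM on day 7, overlapping at the lower day 1 library. For day 3 against day 1 the largest difference was -0.27, for RPL10, and 19.7% of all genes were higher and 17.3% lower without overlap, against 0 and 1 of the rows. RPL38 was at -0.25. From day 14 to day 28, RPS2 (-0.50), RPL3 (0.46) and RPSA (0.44) differed most. RPL5 and RPL9 were higher there without overlap (1.74% of all genes) and 0 rows lower (3.02%). Between days 1 and 28, RPLP2 (-0.42), RPL3L (0.39) and RPL38 (-0.31) differed most, and RPL5 alone was higher without overlap (12.6% of all genes), with 0 rows lower (12.5%). RPL5 is a large-subunit protein that also binds the p53 regulator MDM2.

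On day 7 after infarction the rows as a whole were level with naive hearts. No row was called, as for all genes (0%), and the median log2 fold change was 0.02 beside 0.03 for all genes. Above 0 were 27 of 51 rows, beside 53.1% of all genes. Leaving out 1 library moved this median between -0.07 (without infarcted replicate 3) and 0.07 (without infarcted replicate 1), and without naive replicate 1 it was -0.04. At an unadjusted p under 0.05, 3 rows, RPS14 and RPL36AL among them, were higher and 0 lower, while 7.98% of all genes were higher and 4.43% lower. Without overlap, 6 rows were higher, beside 13.9% of all genes, and 3 were lower, beside 10.4%. The naive libraries of this age had 37002909 to 48321350 counts and the infarcted ones 75071994 to 92831231. DESeq2 called 0 rows, and limma voom called 1 higher, RPS14, and 2 lower, beside 13.3% of all genes in either direction.

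RPL36AL, a paralogue of RPL36A in the large subunit, was at 53.4, 66.6 and 69.3 CPM in naive and 77.8, 85.3 and 116 CPM in infarcted hearts on day 7. All 3 infarcted libraries were above the naive ones, with a log2 difference of 0.56 (SE 0.24, adjusted p = 0.350 by edgeR). RPS14 was at 4.71, 3.91 and 3.04 CPM in naive and 5.51, 5.46 and 6.94 CPM in infarcted hearts, a log2 difference of 0.62 (SE 0.24, adjusted p = 0.320 by edgeR); naive day 7 replicates 2 and 3 were the lowest of all 21 libraries. RPS2 differed by 0.72 (adjusted p = 0.589 by edgeR), from 1.24, 0.866 and 0.984 CPM to 1.82, 2.12 and 1.15 CPM, overlapping at the third infarcted library. RPL3 went the other way, from 119, 170 and 139 CPM to 107, 118 and 90.1 CPM without overlap, with a log2 difference of -0.44 (SE 0.37, adjusted p = 0.665 by edgeR).

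On day 14 most rows lay slightly above naive hearts, though none was called and no other gene was (0%). The median log2 fold change was 0.18 beside -0.01 for all genes, and 48 of 51 rows were above 0, beside 48.9% of all genes. Because the rows moved together within a library, these 48 are not separate results. The shift was smaller than the 0.335 SD between animals, which is the spread of single libraries and not the error of the shift. Without naive replicate 1 or 3 the median was 0.36 or 0.07. At an unadjusted p under 0.05, 1 row was higher and 0 lower, while 2.99% of all genes were higher and 2.36% lower. Without overlap, 3 rows were higher and 0 lower, beside 3.73% and 4.49% of all genes. These were RPS16, RPL9 and RPSA. RPS16, whose tail reaches the decoding region of the small subunit, had 187, 190 and 124 CPM in naive and 275, 255 and 227 CPM in infarcted hearts. Its log2 fold change of 0.59 (SE 0.25, adjusted p = 0.911 by edgeR) was the largest. Those of RPL36AL (0.45) and RPLP2 (0.36) came next, both with groups that overlapped. DESeq2 and limma voom called 0 rows.

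On day 28 most ribosomal protein rows had higher fitted means after infarction, and 5 of them passed the test. The rows were not tested as a group. Most of the difference came from 1 of the 2 infarcted animals. Against the naive mean, the median ratio of the rows was 2.07 for replicate 1 and 1.12 for replicate 2. Leaving out naive replicate 1, 2 or 3 of day 28 left 0 rows called. The median log2 fold change was 0.67 (middle 50% of rows, 0.51 to 0.77), beside 0.00 for all genes. Above 0 were 48 of 51 rows, beside 50.4% of all genes. Small-subunit rows (median 0.71) and large-subunit rows (median 0.65) both lay above 0. By edgeR, 5 rows (9.80%) rose and none fell, beside 6.86% of all genes called in either direction and 4.47% called higher. At an unadjusted p under 0.05, 34 rows (66.7%) were higher and 0 lower, beside 15.1% of all genes higher. Because the rows moved together within a library, these 34 are not separate results. Both infarcted libraries were above all 3 naive ones in 15 rows (29.4%), beside 16.4% of all genes, and below them in 1 row, RPL7L1, beside 21.4%.

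**Figure D2:**
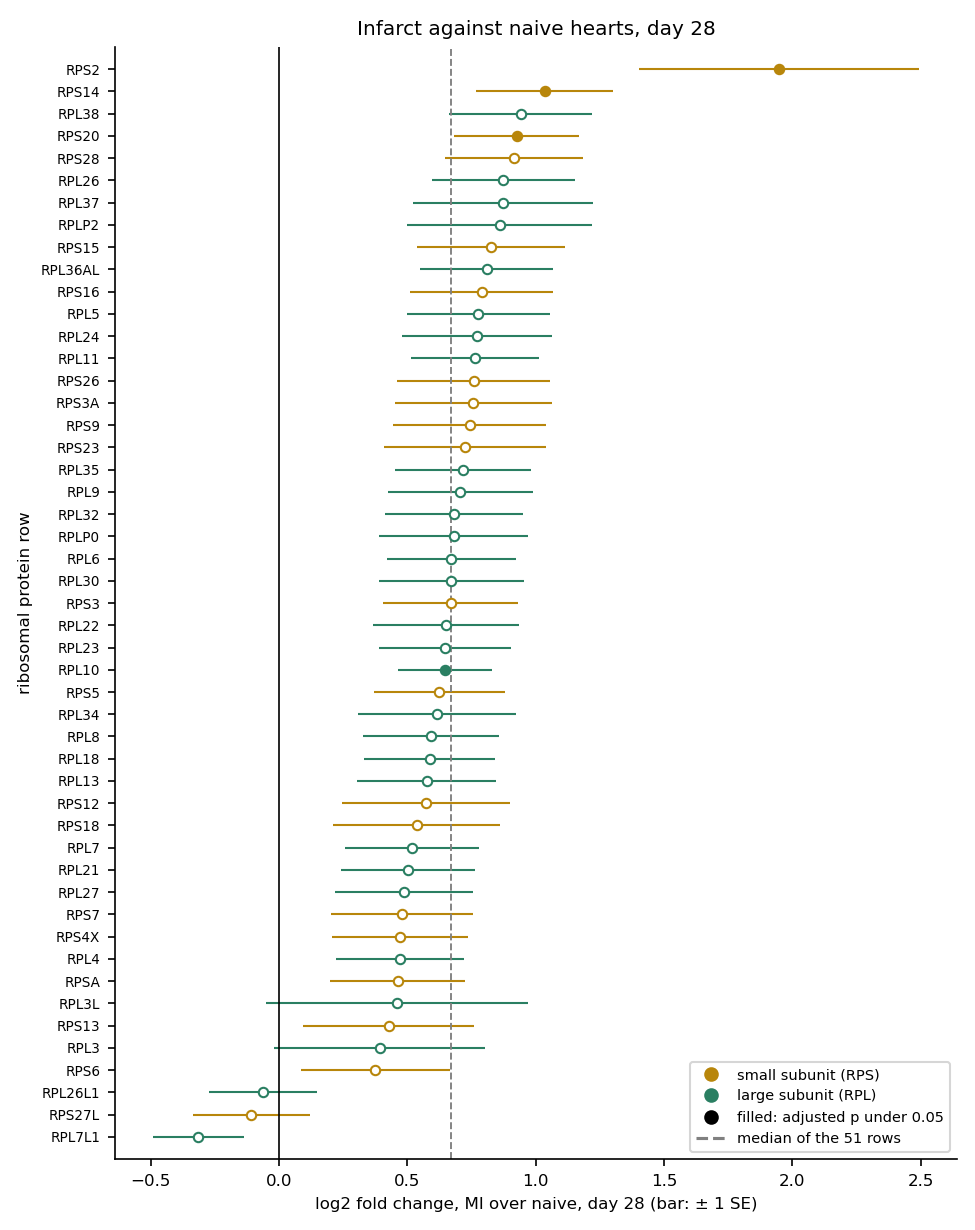
Points are the log2 fold changes of MI (n = 2) over naive (n = 3) hearts on day 28 for 49 of the 51 rows, with bars of ± 1 SE and a dashed line at the median of all 51, 0.67. Filled points are 4 of the 5 rows with an edgeR adjusted p under 0.05, and RPL26L1, RPS27L and RPL7L1 are the only rows below 0.

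The plot of the day 28 fold changes row by row shows most rows in a narrow band around the median, with RPS2 well above every other row and RPL10, also called, just below the median. RPS20, a protein of the small-subunit head, was at 430.0, 475 and 475 CPM in naive hearts and at 1072 and 676 CPM after infarction, with a log2 difference of 0.93 (SE 0.24, adjusted p = 0.0364 by edgeR). RPL10 had the smallest change among the called rows, 0.65 (SE 0.18, adjusted p = 0.0449 by edgeR). It was at 643, 657 and 683 CPM in naive hearts, the narrowest of these ranges, and at 1225 and 843 CPM in infarcted hearts. In both of these rows the first infarcted library was well above the second, and the second was itself above all naive hearts of day 28. For RPL10 it was below naive day 7 replicates 1 and 3, at 858 and 848 CPM.

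The least counted rows, RPS14 and RPS2, were also called. RPS14, which lies on the platform of the small subunit, was at 4.48, 5.53 and 6.08 CPM in naive hearts and at 13.5 and 8.45 CPM after infarction, a log2 difference of 1.04 (SE 0.27, adjusted p = 0.0344 by edgeR). RPS2, which lies at the entry of the messenger RNA channel, was at 1.07, 1.67 and 0.931 CPM and at 5.80 and 3.62 CPM, a log2 difference of 1.95 (SE 0.55, adjusted p = 0.0438 by edgeR). Just outside the threshold, RPS28 had a log2 fold change of 0.91 (adjusted p = 0.05004 by edgeR) and RPL38 one of 0.94 (adjusted p = 0.0508 by edgeR). Rows with a pyrimidine tract in the window around the annotated start had a median log2 fold change of 0.67 (23 rows), and rows without one also 0.67 (27 rows). Because annotated starts are not mapped cap sites, this split cannot separate messages with a TOP tract from messages without one.

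The 3 rows below 0 were paralogues of core proteins. RPL7L1, a paralogue of RPL7, was at 45.8, 47.0 and 53.2 CPM in naive and 40.1 and 38.2 CPM in infarcted hearts, both below all naive ones, a log2 difference of -0.31 (SE 0.18, adjusted p = 0.260 by edgeR). RPL7 itself was at 635, 551 and 720.2 CPM and at 1157 and 661 CPM, with a log2 fold change of 0.52 (adjusted p = 0.212 by edgeR). RPS27L, a p53-responsive paralogue of RPS27, was at 36.5, 32.6 and 40.1 CPM in naive hearts and 45.7 and 21.9 CPM in infarcted hearts, a log2 fold change of -0.11 (adjusted p = 0.792 by edgeR), with the infarcted libraries on either side of the naive range. RPL26L1 gave -0.06 (adjusted p = 0.871 by edgeR), with 14.4, 13.6 and 17.7 CPM against 13.5 and 15.7 CPM, while RPL26 gave 0.87 (adjusted p = 0.0627 by edgeR), with 429, 520.3 and 511 CPM against 1169 and 615 CPM. The difference between the fold changes of a paralogue and its partner was not tested. Of the single members of other listed pairs, RPL22 (0.65, adjusted p = 0.154), RPL36AL (0.81, adjusted p = 0.0642) and RPS4X (0.47, adjusted p = 0.260 by edgeR) were above 0.

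The day 28 result rested on 1 animal for most rows. Infarcted replicate 1 was above all naive libraries of day 28 in 48 rows and replicate 2 in 15. In 50 rows replicate 1 was above replicate 2. Against the naive mean, the median ratio of the rows was 2.07 for replicate 1 and 1.12 for replicate 2. Naive replicate 3 was itself 1.40 times the mean of the other naive libraries and above infarcted replicate 2 in 35 rows. Without infarcted replicate 1 the median fell to 0.18, with 42 rows above 0 and 0 called, and without replicate 2 it was 1.07, with 24 called (5.45% of all genes). In each of these fits the lone infarcted library is assumed to vary like the other groups. Leaving out naive replicate 1, 2 or 3 also left 0 rows called, with medians of 0.62, 0.61 and 0.82. All 5 calls were also lost with limma voom (0.313% of all genes called) and with only the day 28 groups in the fit, while DESeq2 called 16 rows (14.4% of all genes).

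A set of 4 libraries differed from the other 17 in the share of counts of the mitochondrial gene ND1, 0.879% to 1.58% against 0.253% to 0.572%, and the labels give no batch. The set comprised replicate 2 of both day 28 groups, replicate 3 of the infarcted day 7 group and replicate 3 of the naive day 14 group. Within these 4, infarcted replicate 2 was above naive replicate 2 on day 28 in 47 of 51 rows, with a median log2 ratio of 0.36. Within the others, infarcted replicate 1 was above the mean of naive replicates 1 and 3 in 49 rows, with a median of 0.99. Neither comparison has replicates on the infarcted side. Rows moved together within a library, so these counts of rows are not separate results. Between the 2 naive day 1 libraries, without any infarct, replicate 1 was above replicate 2 in 50 rows, by a median ratio of 1.57. The part of the set of 4 libraries in the day 28 result was not tested. With the 4 libraries left out of the fit, 19 rows were called (6.33% of all genes) and the median was 0.99, in a fit where infarcted replicate 1 stands alone and is assumed to vary like the other groups.

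On day 28 markers of other cell types set the infarcted replicates apart, measured as mean log2 CPM over each list and set beside naive hearts of day 28. Of all genes, 4.47% were called higher at this age and 6.86% in either direction, and no marker was called on day 7 or day 14 after infarction. Adipocyte markers (5 of 6 tested, 3 higher by edgeR) were at 5.07 in infarcted replicate 1 and 0.13 in replicate 2, against -0.59 to 0.28 in naive hearts; ADIPOQ, the adipocyte hormone adiponectin, was at 116 CPM in replicate 1 and at 0 to 0.0757 CPM in naive hearts. Macrophage and monocyte markers (12 of 12 tested, 9 higher) went the other way, at 4.401 in infarcted replicate 1 and 7.50 in replicate 2. Naive replicates 1, 2 and 3 were at 4.31, 4.13 and 2.20, so infarcted replicate 1 lay near naive replicates 1 and 2. Fibroblast markers (10 of 10, 2 higher) were also higher in infarcted replicate 2, at 6.46 in replicate 1 and 9.13 in replicate 2 against 6.60 to 7.37. Lymphocyte markers (12 of 12, 4 higher) were at -0.55 and 2.56 against -2.01 to 0.10, and smooth muscle and pericyte markers (8 of 8, 4 higher) at 6.41 and 5.33 against 4.87 to 5.14. Cycling-cell markers (8 of 10 tested, 0 called) were at 2.35 and 3.83 against 3.94 to 4.52, and mitochondrially encoded genes took 34.6% and 19.2% of the counts against 15.8% to 30.9%. The cardiomyocyte list (9 of 12 tested, 2 lower), which marks the labelled tissue, was high in every library (11.3 to 12.6 over all 21) and lowest on day 28 after infarction (11.6 and 11.3 against 12.3 to 12.5); TNNI3 was listed at 0 in every library. The part of these cell types in the ribosomal protein result was not tested.

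The last question was whether the infarct effect on the rows differed between ages, tested as an interaction. For day 28 minus day 7, 0 rows were called (2 of all genes, 0.0130%). At an unadjusted p under 0.05, 9 were higher (9.71% of all genes) and 0 were lower (9.33%). Above 0 were 50 of 51 rows, beside 47.1% of all genes, with a median of 0.60 beside -0.05 for all genes. RPL10 had the smallest edgeR adjusted p, 0.106, and RPS2 (1.23, adjusted p = 0.374) and RPS23 (1.16, adjusted p = 0.174) had the largest differences by edgeR. RPS23 lies at the decoding centre. DESeq2 called 2 rows (4.54% of all genes) and limma voom 0. Without infarcted day 28 replicate 1 the median of the rows was 0.12. For day 14 minus day 7, 0 rows were called (1 of all genes, 0.00651%), 0 passed at an unadjusted p under 0.05 (2.49% of all genes higher, 4.58% lower), and the median was 0.17 beside -0.04, and 0.10 to 0.36 with 1 library left out, with RPS2 (-0.65), RPL3 (0.61) and RPS13 (0.53) farthest from 0. The day 28 and day 14 differences share the day 7 libraries.

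**Figure D3:**
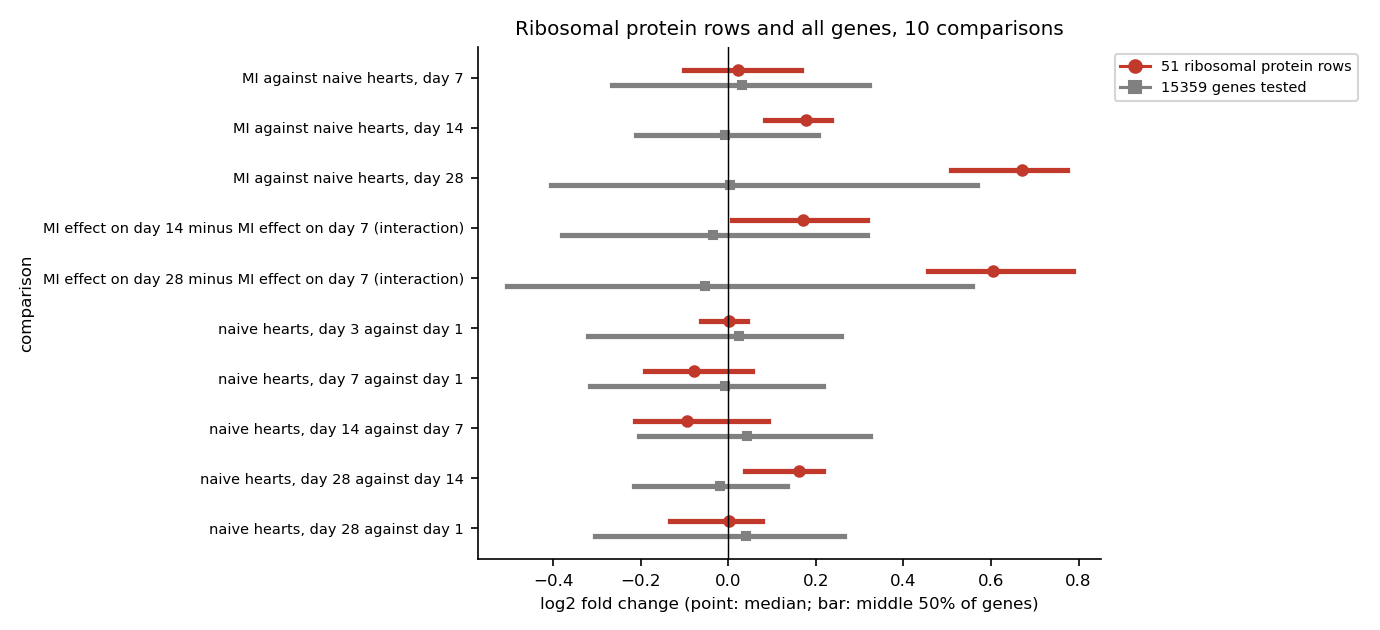
Points are median log2 fold changes, and bars the middle 50%, of the 51 ribosomal protein rows (red) and of the 15359 genes tested (grey) in the 10 comparisons. The rows' medians lie within 0.18 of 0 in all comparisons except MI against naive on day 28 (0.67) and the day 28 minus day 7 interaction (0.60).

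The plot of all 10 comparisons sets the rows beside all genes. The rows' median lay within the middle 50% of all genes except on day 28 after infarction, in the day 28 minus day 7 interaction and in naive hearts on day 28 against day 14. The bars cover genes, which share animals, and are no measure of error.

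RPL3 and RPL3L, which occupy the same place in the large subunit, were counted at similar levels. RPL3L was at 97.3 and 61.98 CPM on day 1, 59.6 and 108 on day 3, and 105, 174 and 33.3 on day 28 in naive hearts. After infarction it was at 56.7, 72.7 and 63.6 CPM on day 7, 143, 105 and 124 on day 14, and 208 and 78.4 on day 28. The groups overlapped at most ages. The 3 day 14 infarcted libraries, like the naive ones of that age, were all above the 3 of day 7. In the naive step 10.1% of all genes were higher without overlap. Infarcted hearts of day 14 and day 7 were not compared over all genes, so no such share is given for them. RPL3 was at 146 and 102 CPM on day 1, 152 and 86.2 on day 3, 133, 89.0 and 65.3 on day 14 and 97.2, 63.9 and 234 on day 28 in naive hearts, and at 109, 118 and 96.2 CPM on day 14 and 189 and 157 on day 28 after infarction. On day 28 neither was called, RPL3 with a log2 difference of 0.39 (SE 0.41, adjusted p = 0.564 by edgeR) and RPL3L with 0.46 (SE 0.51, adjusted p = 0.589 by edgeR).

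Per transcript length (1540 bases for RPL3L and 1323 for RPL3), RPL3L made up 36.4% and 34.2% of the pair's summed level on day 1, and 25.3% and 51.9% on day 3. It made up 45.7%, 19.5% and 33.3% on day 7, 45.3%, 54.1% and 62.3% on day 14, and 48.2%, 70.1% and 10.9% on day 28 in naive hearts. After infarction the shares were 31.2%, 34.7% and 37.8% on day 7, 52.9%, 43.3% and 52.6% on day 14, and 48.6% and 30.1% on day 28. The day 14 infarcted shares were all above those of day 7, a difference that was not tested or set beside other genes. Animals of 1 group differed most in naive hearts on day 28, where replicates 2 and 3 held the highest and the lowest share of all 21 libraries.

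**Figure D4:**
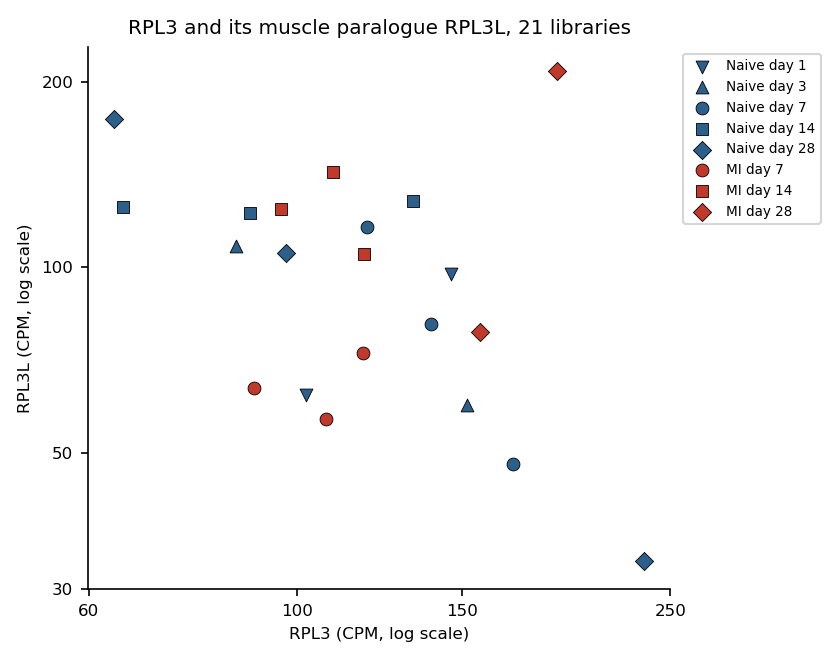
Each point is 1 of 21 libraries, with RPL3 on the horizontal and RPL3L on the vertical axis, both in CPM on log scales, and with shape for the day and colour for injury. The naive day 28 libraries span both ends, from 63.9 CPM of RPL3 with 174 CPM of RPL3L to 234 with 33.3.

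Across the libraries in the plot of the pair, log2 RPL3L and log2 RPL3 had a Pearson r of -0.44 (n = 21, two-sided permutation p = 0.0447, 0.134 adjusted over 3 paralogue pairs) and a Spearman rho of -0.38 (permutation p = 0.0905, 0.271 adjusted). Without the 2 libraries farthest from the median of RPL3, naive day 28 replicates 3 and 2, r was -0.11, so the relation rested on these libraries. With each library taken as its deviation from its group mean, r was -0.64 over all 21, a description that includes the same libraries. Without the 4 libraries high in ND1, r was -0.37 (n = 17); those 4 were too few for a value of their own. The other pairs had r of -0.05 (RPL26L1 and RPL26, permutation p = 0.812, 0.876 adjusted) and 0.04 (RPL7L1 and RPL7, permutation p = 0.876, 0.876 adjusted).

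Other genes of ribosome production and its control, from 4 lists chosen by function, were examined in the same fit. Of 18 tested translation factors and other messages of the TOP class (of 25 listed), 16 were above 0 on day 28 with a median log2 fold change of 0.45, and 1 was called, beside 6.86% of all genes: NAP1L1, a histone chaperone, rose from 171, 174 and 176 CPM to 350 and 279 CPM (log2 fold change 0.86, SE 0.18, adjusted p = 0.0182 by edgeR). Of 36 ribosome biogenesis genes (of 42), 14 were above 0 with a median of -0.11, and RRP12, an export factor of the pre-ribosomal subunits, fell from 36.3, 38.4 and 64.9 CPM to 25.7 and 20.9 CPM (-0.998, SE 0.24, adjusted p = 0.0294 by edgeR). Of the 12 genes of RNA polymerase I and its factors, 6 were above 0 with a median of 0.02, and POLR1D, a subunit shared with RNA polymerase III, rose from 30.6, 41.5 and 30.6 CPM to 91.9 and 47.5 CPM (1.03, SE 0.29, adjusted p = 0.0456 by edgeR). Of 20 mTORC1 pathway genes and TOP regulators (of 22), 11 were above 0 with a median of 0.03. That list also held MYC, a transcription factor that drives ribosome production and is not a subunit of mTORC1. MYC rose from 14.8, 20.8 and 17.8 CPM to 89.4 and 34.3 CPM (1.80, SE 0.43, adjusted p = 0.0279 by edgeR). MLST8, which is a subunit of the kinase complex, fell from 15.2, 18.9 and 20.3 CPM to 12.9 and 11.0 CPM (-0.60, SE 0.18, adjusted p = 0.0493 by edgeR). The shares of the 4 lists that were called, 1 of 18, 1 of 36, 1 of 12 and 2 of 20, are to be read against that background. Without infarcted replicate 1, NAP1L1, POLR1D, MYC and MLST8 were no longer called, and without replicate 2 RRP12 and MLST8 were not. All 5 were also lost without naive replicate 3, with limma voom (adjusted p = 0.119 to 0.421) and with only the day 28 groups in the fit (adjusted p = 0.144 to 0.276 by edgeR), and MLST8 was lost in 12 of 16 alternatives.

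On day 7 after infarction the order of the lists was different. The medians were 0.14 for translation factors, 0.25 for ribosome biogenesis (30 of 36 above 0), 0.30 for RNA polymerase I (10 of 12 above 0) and 0.07 for the mTORC1 list, beside 0.02 for the ribosomal protein rows. On day 14 they were 0.08, 0.07, 0.11 and -0.05, beside 0.18. No gene of the 4 lists was called on either day or in any of the naive comparisons and interactions, and the lists were not tested against each other.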

How the data were processed

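The authors deposited read counts per gene for 21 libraries, which were assumed to be raw. The submitters' processing notes list the tools Trim Galore, STAR 2.5.2, HTSeq 0.6.1 and DESeq2 and the build Sscrofa11.1. Neither the strand setting, the annotation release nor the treatment of multiply matching reads is given in the sources used here, so overlapping and near-identical genes are uncertain. Total counts were 37002909 to 95559841 per library.

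From these counts, genes were kept with filterByExpr (15359 of 25880), scaled by TMM, and fitted with edgeR 4.0.16 (R 4.3.3; glmQLFit, robust, 8 groups, all 21 libraries, no covariates, 13 residual degrees of freedom). Quasi-likelihood tests were two-sided, Benjamini-Hochberg adjusted over all genes and called under 0.05. CPM used scaled library sizes, and log2 CPM a prior count of 2. A median of fitted fold changes carries no test. The procedure was tested on simulated counts, drawn independently for each gene with 200 genes changed at random. That simulation held no shift shared by the rows of a library, so it cannot speak to rows that move together. Alternatives used DESeq2 1.42.0, limma 3.58.1 (voom), other scalings, no filter, a term for 4 libraries that stood apart, summed symbols and each replicate left out.

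The members and lists were chosen with earlier results of these data known. Rows were named by this rule: up to 3 called rows per direction and comparison, or else the 3 largest changes; 9 paralogue pairs; the 3 highest and lowest by mean CPM and by SD of group means; for lists, called genes. RPL10 and RPS2 as called rows, rows whose groups did not overlap, RPS28 and RPL38 near the threshold, RPS26, and RPL23 and RPS20 by length were named after their values were seen. Replicates were separate pigs. Values of 2 rows, 1 of them called on day 28, entered every fit, count and median but are not reported by name here.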

Additional observations from a re-analysis of the deposited data

How the results depend on the processing

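On day 28 after infarction, the reported 5 ribosomal protein rows called became 3 with no filter on low counts, 16 with DESeq2, 0 with limma voom, 0 with only the groups compared in the fit, 19 without the 4 libraries high in ND1 and 3 with a term for them. Leaving out each replicate gave 0 to 24 calls and medians of 0.18 to 1.07, with a lone infarcted library assumed to vary like the other groups, and the other scalings, summed symbols and the rows named only by ID, added after seeing the data, gave 5 to 7. For the day 28 minus day 7 interaction, DESeq2 called 2 rows, and without the 4 libraries 3 were called with a median of 1.02; leaving out replicates gave 0 to 2 calls and medians of 0.12 to 1.04. Limma voom called 3 rows on day 7 after infarction and 2 in naive hearts on day 14 against day 7. Leaving out naive day 1 replicates moved the medians of day 3, day 7 and day 28 against day 1 over -0.35 to 0.35, -0.38 to 0.30 and -0.34 to 0.38. The causes were not tested. The remaining 160 of 176 counts of called rows stayed within 1.5 times the reported count. Most of these counts were 0 in the reported fit and stayed 0. On day 28 after infarction, the only comparison with reported calls, 5 settings stayed within this limit and 11 did not. Likewise 166 of 176 medians stayed within 1 SD (0.335) of the reported median. By that limit a day 28 median of 0.99 counted as unchanged from the reported 0.67. No called gene turned its direction. Calls among all genes on day 28 ranged from 2 to 2216 (reported 1053) over alternatives and from 17 to 1162 with replicates left out. Elsewhere the reported 0 to 2 calls ranged from 0 to 2050 on day 7, 0 to 15 on day 14, 0 to 39 and 1 to 696 for the interactions and 0 to 927 in naive hearts. Rows at few counts, RPS2 above all, are limited by depth. No paired analysis was possible because pig numbers are not shared between groups and replicate numbers were given in accession order.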

Other observations

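A further 11 ribosomal protein rows have no name in the deposited table and were recognised by gene ID in a reference table of names: RPLP1, RPL14, RPL29, RPL23A, RPS15A, RPL7A, RPS25, RPS29, RPL36A, RPL28 and RPS24. RPL29 had no counts, and the other 10 were tested. On day 28 after infarction all 10 had log2 fold changes above 0, from 0.30 for RPS29 to 0.77 for RPL23A, with a median of 0.64 and none called by edgeR. RPLP1, the partner of RPLP2 in the stalk, was at 627, 678 and 1065 CPM in naive and 1532 and 919 CPM in infarcted hearts. Naive replicate 3 was the highest naive library there and lay above infarcted replicate 2, as it did in 35 of the 51 named rows. RPL36A had the largest change of these rows on day 7 after infarction, 0.87, and the lowest in naive hearts on day 7 against day 1, -1.04, and neither passed the test. In the other infarct comparisons their medians were 0.09 on day 7 and 0.21 on day 14.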
